A study of Mus musculus with 32 samples.

Results

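Transcripts of 8 genes that act on the first step of translation or on the kinase complex upstream of it were described in the liver of mice with and without medium-chain acyl-CoA dehydrogenase (MCAD). The genes were the cap-binding protein gene Eif4e, its repressors Eif4ebp1, Eif4ebp2 and Eif4ebp3, and the mTORC1 inhibitors Ddit4, Sesn1, Sesn2 and Deptor, so 8 of the 20076 genes counted. They were chosen by function around 1 observed value, the low Eif4ebp2 count in fasted MCAD-KO mice on the low-fat diet. That contrast is therefore described below without a test.

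Liver RNA came from 32 male mice on a C57BL/6J background, 4 in each of 8 groups. Acadm-knockout (KO) and wild-type littermates (WT) received a low-fat (LF) or a palm-oil-based high-fat (HF) diet for 6 weeks, and were then kept on the diet (fed) or deprived of food for 16 h (fasted). The knockout is present in all tissues, and the labels give ages from 7.5 to 16 without a unit. Following the rule by which the genes were chosen, 2 mice were left out: KO HF fasted replicate 4, a library whose RNA looked like heart, and WT LF fed replicate 2, which stood apart from its group. Thus 30 mice were used, with n = 3 in these 2 groups and n = 4 in the other 6.

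Total counts ranged from 2031053 to 4292200 per mouse. Acadm, the gene that was knocked out, had 26 to 94 counts in KO mice and 566 to 2752 counts in WT mice over all 32 libraries. The summed level of 10 hepatocyte markers (Alb, Ttr and others) lay between 43760 and 71600 counts per 1000000 (CPM) in the 30 mice, against 839.6 in the left-out library labelled KO HF fasted replicate 4. The 12 heart markers had a summed level of 39930 CPM there, and none of the 30 mice exceeded 247 CPM. Of the mice that were kept, KO HF fed replicate 1 and WT HF fasted replicate 2 held RNA of acinar pancreas (summed markers 2690 and 17820 CPM), and KO LF fasted replicates 3 and 4 held RNA of adrenal cortex (274.2 and 115.2 CPM). The library of KO LF fasted replicate 1 correlated least with the others among the 30, with a median r of 0.876 of log2 CPM. In bulk liver, fewer cells of a type and less RNA per cell cannot be told apart.

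Background is needed on how these genes act. eIF4E binds the cap of an mRNA and recruits the scaffold eIF4G, which starts cap-dependent translation. The 4E-BP proteins occupy the same surface of eIF4E and block this step. mTORC1, a kinase complex that responds to insulin, amino acids and energy, phosphorylates the 4E-BPs and so releases eIF4E. DDIT4 (also REDD1) restrains mTORC1 through the TSC complex and is induced by glucocorticoids, hypoxia and stress. The sestrins, products of Sesn1 and Sesn2, sense leucine or stress and hold back amino acid signalling to mTORC1, and DEPTOR binds the kinase itself. During fasting the liver lowers mTORC1 activity. The pathway signals through phosphorylation and binding of proteins, so transcript counts do not measure its activity.

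Promoters are shown for Eif4ebp2, around which the genes were chosen, and Ddit4, the member called between diets below. Both lie on the minus strand of chromosome 10 (GRCm38), Ddit4 at 59949669 to 59951834 and Eif4ebp2 at 61428491 to 61452661. RefSeq promoter windows (GRCm38.p6, 250 bases before to 50 after a transcript start) were found for 5 of the 8 genes, as 7 windows. The bases before the start of transcription are printed. For Ddit4 these are the 186 bases of its window before the annotated gene start, which lies before the RefSeq start. For Eif4ebp2 they are the 250 bases before the RefSeq start. Capitals mark the CCAAT box on either strand (CCAAT or ATTGG).
Ddit4, chr10:59951835-59952020, minus strand: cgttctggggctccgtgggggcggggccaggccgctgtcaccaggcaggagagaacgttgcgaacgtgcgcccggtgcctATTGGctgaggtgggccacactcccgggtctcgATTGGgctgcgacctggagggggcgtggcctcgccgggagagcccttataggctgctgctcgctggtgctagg
Eif4ebp2, chr10:61452670-61452919, minus strand: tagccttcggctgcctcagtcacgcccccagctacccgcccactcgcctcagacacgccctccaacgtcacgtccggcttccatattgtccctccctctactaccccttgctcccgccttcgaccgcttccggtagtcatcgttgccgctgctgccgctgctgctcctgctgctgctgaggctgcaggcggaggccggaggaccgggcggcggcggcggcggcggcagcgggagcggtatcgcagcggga
Both stretches were rich in G and C (69.9% and 70% of bases). The Ddit4 window held 2 CCAAT boxes and the Eif4ebp2 window held none, and 37.4% of all 32851 windows held at least 1. The 2 windows of Sesn1 and the window of Sesn2 also held it, as did 1 of the 2 windows of Eif4e. Searched in the same way on both strands, TGATGNAA (the ATF4 response element, in 3.97% of all windows), AGAACA (the glucocorticoid half-site, 19%) and TATAAA (13.6%) were in none of the 7. The E-box CACGTG (7.15% of all windows) was in 1 window of Eif4e, and the FoxO element GTAAACA (3.65%) was in 1 window of Sesn1. Such matches describe letters and are no evidence of binding.

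Eif4ebp2, the 4E-BP around which the genes were chosen, had its lowest group mean in KO LF fasted mice. CPM was 21.11, 34.15, 41.02 and 40.93 in the 4 KO LF fasted mice (34.3 ± 9.37, SD) and 56.14, 76.79, 81.7 and 70.15 in the 4 WT LF fasted mice (71.19 ± 11.09, SD). Every one of the 4 KO LF fasted mice lay below every other mouse, although narrowly: the highest had 41.02 CPM and the lowest of the other 26 had 41.23 CPM (KO HF fed replicate 4). How many of all genes part this group from the other 26 mice in this way was not counted. The counts behind these values were 48 to 133 per KO mouse and 151 to 278 per WT mouse. The fitted difference of KO to WT was -1.06 on the log2 scale (SE 0.24), given here as a description because the genes were picked on it. In the LF fasted comparison, every KO mouse lay below every WT mouse for 103 of 9639 genes (1.07%), and Eif4ebp2 is 1 of these.

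The size of this difference depended little on single mice, although these are the mice on which the gene was chosen. It ran from -1.16 to -0.89 with each of the 8 mice left out in turn, the smallest being without KO LF fasted replicate 1. Without the 2 KO mice that held adrenal RNA it was -1.36, with n = 2 KO mice. Within lane 7 it was -1.05 and within lane 8 it was -0.89, where the labels place 3 and 1 of the KO mice.

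In the other 3 conditions, Eif4ebp2 did not pass the test between genotypes. The KO to WT difference was 0.07 in LF fed mice (95% interval -0.37 to 0.50), -0.01 in HF fed mice (-0.36 to 0.35) and 0.01 in HF fasted mice (-0.37 to 0.39). Each of these intervals ends above the -1.06 seen in LF fasted mice, but whether the genotype effects differ was not tested, since the contrast that chose the gene enters such a test. Mean CPM was 56.37 ± 4.26 (SD, n = 3) in WT LF fed and 58.86 ± 20.91 (SD, n = 4) in KO LF fed mice. It was 62.26 ± 3.78 (SD, n = 4) in WT HF fed and 61.67 ± 13.95 (SD, n = 4) in KO HF fed mice. After fasting on HF it was 68.65 ± 10.75 (SD, n = 4) in WT and 69.19 ± 11.84 (SD, n = 3) in KO mice. Ordered by mean, the 7 groups from WT LF fed to WT LF fasted ran from 56.37 to 71.19 CPM with overlapping ranges between neighbours. Only KO LF fasted, the group on which the gene was chosen, did not overlap with them, by the narrow margin given above. Fasting on HF moved Eif4ebp2 by 0.15 (SE 0.15, adjusted p = 0.797), and HF against LF in fed mice by 0.10 (SE 0.15, adjusted p = 0.928).

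**Figure D1:**
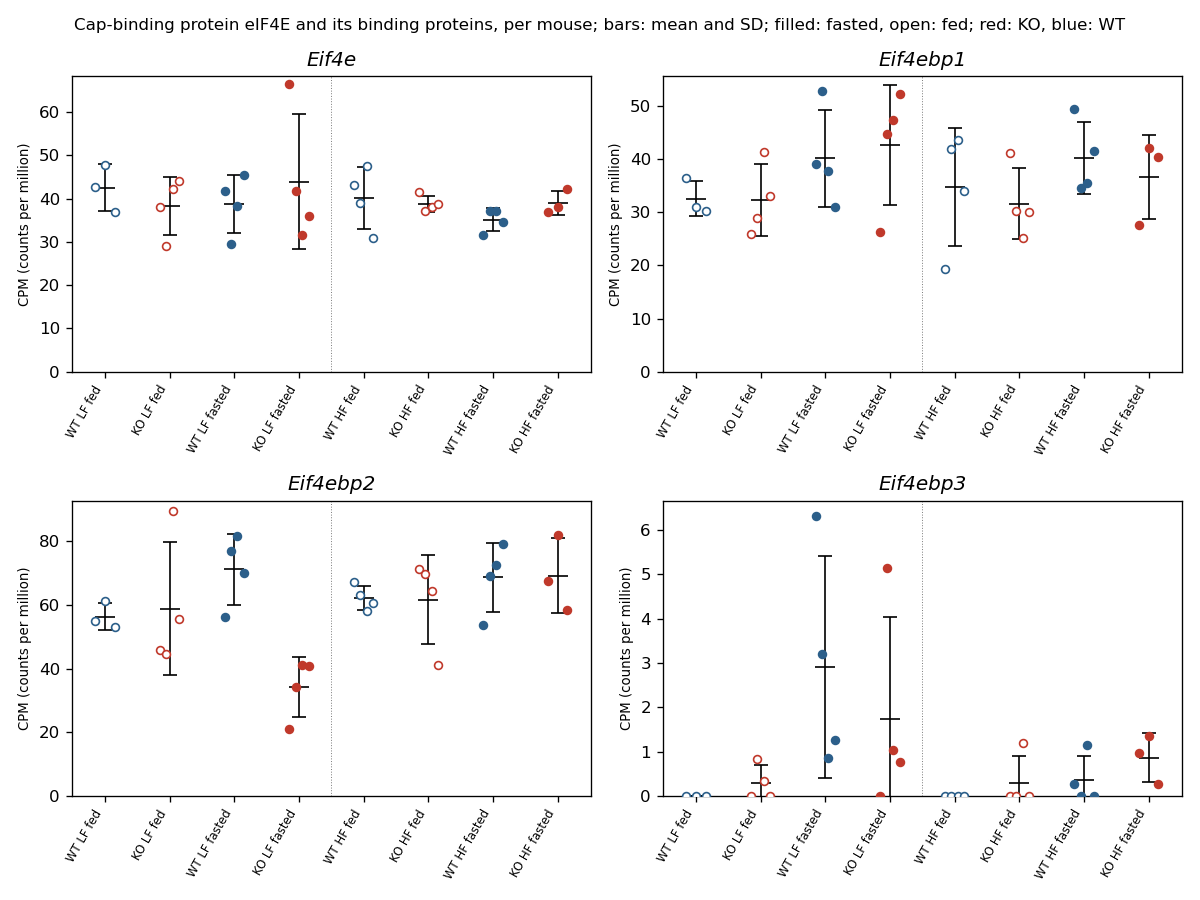
CPM of Eif4e, Eif4ebp1, Eif4ebp2 and Eif4ebp3 in each of the 30 mice, by group, with separate axes that start at 0; points are mice and bars are the mean and SD. The 4 KO LF fasted mice lie at 21.11 to 41.02 CPM of Eif4ebp2, below all others, and Eif4ebp3 is above 3 CPM in 3 LF fasted mice only.

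Eif4e itself, the target of the 4E-BPs, did not follow Eif4ebp2. Its group means ranged from 35.1 to 43.92 CPM, a 1.25-fold span. KO LF fasted mice had 66.41, 41.85, 31.55 and 35.87 CPM, so that the highest mean of the 8 groups came from replicate 1 alone, the highest of the 30 mice. The same mouse had the lowest values of Eif4ebp2 and Sesn1. Eif4ebp1, which encodes the best studied 4E-BP, had group means from 31.64 to 42.66 CPM and ran from 19.38 to 52.79 CPM over the mice. No difference between genotypes passed the test, with KO to WT differences from -0.14 to -0.01 on the log2 scale in the 3 conditions tested (adjusted p from 0.996 to 0.999). Within a library, the ratio of Eif4ebp2 to Eif4ebp1 counts needs no scaling between mice. It was 0.764 to 0.867 in the 4 KO LF fasted mice and at least 1.09 in every other mouse. The low Eif4ebp2 counts around which the genes were chosen enter this ratio and the next. Both are therefore descriptions and give no separate support. The ratio of Eif4ebp2 to Eif4e counts was 0.318 to 1.3 in KO LF fasted mice and 1.35 to 2.6 in WT LF fasted mice, but the former overlapped with KO HF fed, KO LF fed, WT HF fed and WT LF fed mice, which began at 1.07, 1.21, 1.22 and 1.28.

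Eif4ebp3, the least studied 4E-BP, was a rare transcript with 77 counts in all 30 mice together, of which 56 came from the 8 LF fasted mice. In all, 15 mice were at 0 counts, which allows up to 0.741 to 1.24 CPM per mouse. CPM was 6.321, 3.199, 0.86 and 1.262 in WT LF fasted mice and 0, 5.135, 1.052 and 0.78 in KO LF fasted mice. Against this, the 7 LF fed mice had 0 CPM in 5 mice and 0.84 and 0.34 CPM in KO replicates 2 and 3. Thus 7 of 8 LF fasted mice had counts, and 6 lay above the highest LF fed mouse in CPM. In counts, WT and KO LF fasted replicate 3 had 2 each, the same as that fed mouse, KO LF fed replicate 2. How many of all genes part these mice in this way was not counted. Summed over mice there were 56 counts in fasted and 3 counts in fed LF mice, a ratio of 16.8 per total count with a counting interval of 5.46 to 83.9 (exact, 95%). That interval covers counting error only, and 1 mouse supplied 20 of the 56 counts. A two-sided exact permutation test over mice on log2(CPM + 1), genotypes pooled, gave p = 0.00684 for LF fasted against fed (n = 8 and 7). With each mouse left out in turn this exact p ran from 0.00117 to 0.0136. It was 0.00991 without the 2 mice with adrenal RNA. The labels place every WT LF fed mouse on lane 8, and the permutation took no account of lane. On lane 8, LF fasted mice had 0.86, 1.262 and 0.78 CPM (2, 5 and 2 counts), and LF fed mice had at most 0.34 CPM (1 count). On lane 7, values were 6.321, 3.199, 0, 5.135 and 1.052 CPM in LF fasted mice and 0 and 0.84 CPM in LF fed mice. The part of lane in the result was not tested.

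On HF the same comparison of Eif4ebp3 rested on fewer counts. Fasted HF mice had 14 counts in 5 of 7 mice and fed HF mice had 4 counts in 1 of 8 mice, and the exact permutation p was 0.0937. Fasted LF mice and fasted HF mice, 56 against 14 counts, were not separated either (exact permutation p = 0.0642). These are 3 of 12 such tests, run for Eif4ebp3, Sesn2 and Ddit4, and these p-values are not adjusted for their number. Eif4ebp3 did not pass the filter on low counts in the model of all 8 groups. When all 19532 genes with a count were tested, its adjusted p for fasting on LF was 0.0023 (edgeR). The gene overlaps the annotated gene AC115631.1 on the same strand of chromosome 18, and reads on shared bases cannot be assigned to either. Same-strand overlaps are also annotated for Eif4ebp2 (Gm48086), Sesn1 (9930024M15Rik), Sesn2 (Gm12981) and Eif4e (Mir1956), and Deptor has Gm9920 on the opposite strand.

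Ddit4, the stress- and hormone-induced inhibitor of mTORC1, was lower on HF than on LF after fasting. CPM was 47.59, 19.6, 12.04 and 12.11 in WT LF fasted and 10.55, 8.472, 17.88 and 51.85 in KO LF fasted mice. On HF it was 3.568, 9.756, 3.945 and 4.225 in WT fasted and 17.35, 6.449 and 6.207 in the 3 KO fasted mice. Most HF fasted mice were thus low, 5 of 7 lay below the lowest LF fasted mouse, and the 2 others overlapped with the LF mice. Means were 7.36 ± 4.89 CPM (SD, n = 7) on HF and 22.51 ± 17.23 CPM (SD, n = 8) on LF. The fitted change was -1.63 on the log2 scale (SE 0.47, adjusted p = 0.0355 by edgeR), about 0.32-fold. It was the 1 member of 5 tested that was called in this contrast, where 6.65% of all genes were called and 2.9% were called lower.

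This call was close to the threshold and was lost under several other settings. The adjusted p was 0.0559 with limma voom, 0.0674 without a filter on low counts and, at a change of -0.95, 0.324 with the heart-like library added back. It was also lost without any 1 of 7 mice, with changes from -1.58 to -1.19: KO HF fasted replicates 2 and 3 (adjusted p = 0.0931 and 0.105), WT HF fasted replicates 1, 3 and 4 (0.0671, 0.0664 and 0.065), WT LF fasted replicate 1 (0.0929) and KO LF fasted replicate 4 (0.105). KO LF fasted replicate 4, the mouse with the highest Ddit4, was 1 of the 2 mice with adrenal cortex RNA, and without both the change was -1.01 (adjusted p = 0.218). The part of adrenal RNA in the result was not tested. Within lane 7 the change was -1.19 and within lane 8 it was -2.30 (adjusted p = 0.149 and 0.082). The exact permutation test over mice, which takes no information from other genes, gave p = 0.00777, with 0.00233 to 0.018 when each mouse was left out and 0.0216 without the 2 mice with adrenal RNA.

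In fed mice Ddit4 pointed the same way but was not called. Means were 10.04 ± 3.78 CPM (SD, n = 8) on HF and 21.13 ± 12.6 CPM (SD, n = 7) on LF. The fitted change was -1.03 (SE 0.44, adjusted p = 0.455). The labels place every WT LF fed mouse on lane 8. The part of lane in the permutation result that follows was not tested. An exact permutation over mice, which took no account of lane or genotype, gave p = 0.0288. That p ran from 0.00133 to 0.0646 with single mice left out and passed 0.05 without any of 5 of them: KO HF fed replicate 1 (0.0548), WT HF fed replicate 2 (0.0519), KO LF fed replicate 4 (0.0646), and WT LF fed replicates 3 and 4 (0.0559 and 0.0513). Of the 6 members tested, 0 were called by edgeR in fed mice between diets, 1 had an unadjusted p under 0.05, and 0 were called by DESeq2 or voom, where 0.268% of all genes were called. A change of Ddit4 with fasting was not detectable: on LF it was 0.13 (95% interval -0.76 to 1.01) and on HF -0.47 (-1.46 to 0.51). The LF change ran from -0.31 without KO LF fasted replicate 4 to 0.41 without KO LF fed replicate 4, was also below 0 without WT LF fasted replicate 1 (-0.20) or WT LF fed replicate 1 (-0.09), and was -0.49 without the mice with adrenal RNA. The HF change was -0.80 without KO HF fasted replicate 1, 0.16 within lane 7 and -1.27 within lane 8. In HF fasted mice the KO to WT difference was 0.92 (95% interval -0.04 to 1.88, adjusted p = 0.996). It was 0.26 without KO replicate 1, the highest of the 7 mice, and 2.30 with the heart-like library added back.

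**Figure D2:**
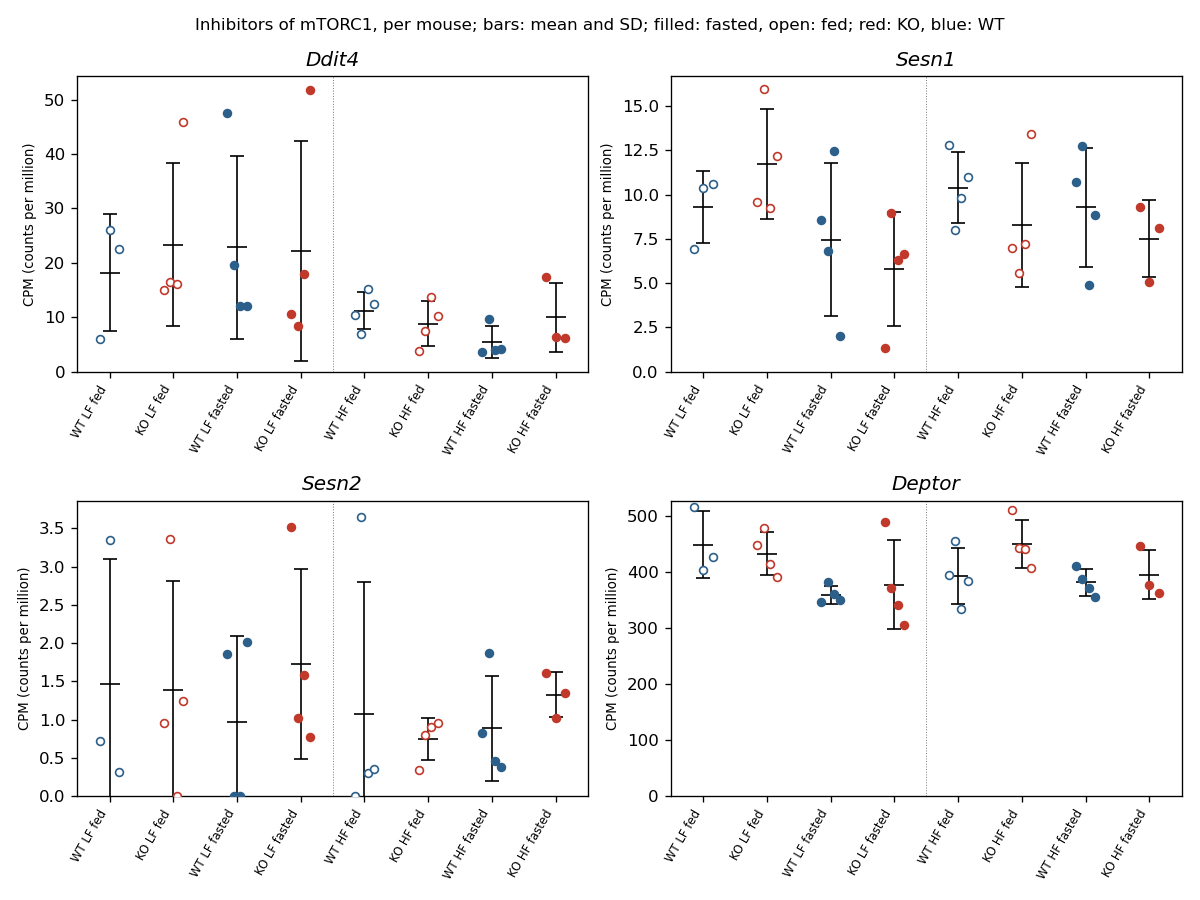
CPM of the mTORC1 inhibitors Ddit4, Sesn1, Sesn2 and Deptor in each of the 30 mice, by group, with separate axes that start at 0; points are mice and bars are the mean and SD. Ddit4 is above 40 CPM in 1 mouse each of the KO LF fed, WT LF fasted and KO LF fasted groups, and the HF fasted mice lie at 3.57 to 17.35 CPM.

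Deptor, whose product binds mTOR directly, had a small change with fasting that fell just short of the threshold. Fasted mice ran from 346.5 to 381.9 CPM in WT LF and were 488.2, 371.8, 340.8 and 305.6 CPM in KO LF, against 402.8 to 515.9 CPM in WT LF fed and 390.9 to 477.8 CPM in KO LF fed mice. On LF, all fasted mice except KO replicate 1 were below all fed mice. The change with fasting on HF was -0.11 (SE 0.11, adjusted p = 0.775). Over all strata the change was -0.19 (SE 0.075, adjusted p = 0.0778), and on LF it was -0.26 (SE 0.11, adjusted p = 0.0823). Without KO LF fasted replicate 1 the changes over all strata and on LF both passed, at -0.22 (adjusted p = 0.012) and -0.33 (adjusted p = 0.00955). DESeq2 also called both (adjusted p = 0.035 and 0.042). The 2 lowest mice, KO LF fasted replicates 3 and 4, were those with adrenal RNA, and without them the changes were smaller, -0.14 over all strata (adjusted p = 0.221) and -0.17 on LF (adjusted p = 0.351). With WT LF fed replicate 2 added back the change on LF was also -0.17 (adjusted p = 0.373). Deptor had 648 to 2153 counts per mouse, which gave it the smallest standard errors of the members.

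Sesn1 and Sesn2 showed no difference that passed a test. Sesn1, with 3 to 42 counts per mouse, had means of 9.31 ± 2.05 (SD, n = 3) and 11.74 ± 3.11 (SD, n = 4) CPM in WT and KO LF fed mice and of 7.46 ± 4.33 and 5.81 ± 3.22 (SD, n = 4 each) CPM in WT and KO LF fasted mice. The change with fasting on LF was -0.66 (SE 0.30, adjusted p = 0.136). Sesn2 had 104 counts in all 30 mice and 0 to 10 per mouse, too few for the filter. Its exact permutation p was 0.435 to 0.966 over the 4 comparisons of feeding state and diet.

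Beside Eif4ebp3, which did not pass the filter, no member had a change with fasting that passed the threshold by edgeR. Over all strata 0 of 5 tested members were called by edgeR, against 18.9% of all 11566 genes, while 2 had an unadjusted p under 0.05 and DESeq2 and voom called 1 each. The 2 were Deptor and Eif4ebp1, the latter with a change of 0.28 (SE 0.12, adjusted p = 0.102, and 0.0334 without KO LF fasted replicate 1). On LF 0 of 5 were called, where 19.4% of all genes were, with 3 at an unadjusted p under 0.05 and 1 call by DESeq2. On HF it was 0 of 6, with 0 at an unadjusted p under 0.05 and 0 by DESeq2 or voom, where 2.62% of all genes were called. The median change of all genes was within 0.01 of 0 in each of these contrasts. A difference of the fasting effect between diets was called for 0 of 5 members (0 at an unadjusted p under 0.05, 0 by DESeq2 or voom), where 2.46% of all genes were called. By genotype it was also 0 of 5 in each of these counts, where 0% of all genes were called by edgeR and 0 by DESeq2 or voom, and 573 genes had an unadjusted p under 0.05.

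Between genotypes, 0 of 6 members were called in LF fed, HF fed or HF fasted mice. For the members, none had an unadjusted p under 0.05 and DESeq2 and voom called 0. The share of all genes called was 0.0193%, 0.00998% and 0.0096% in these conditions, so hardly any gene was called at all. Apart from Ddit4, the 95% intervals of the members tested here lay between -1.06 and 1.04.

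**Figure D3:**
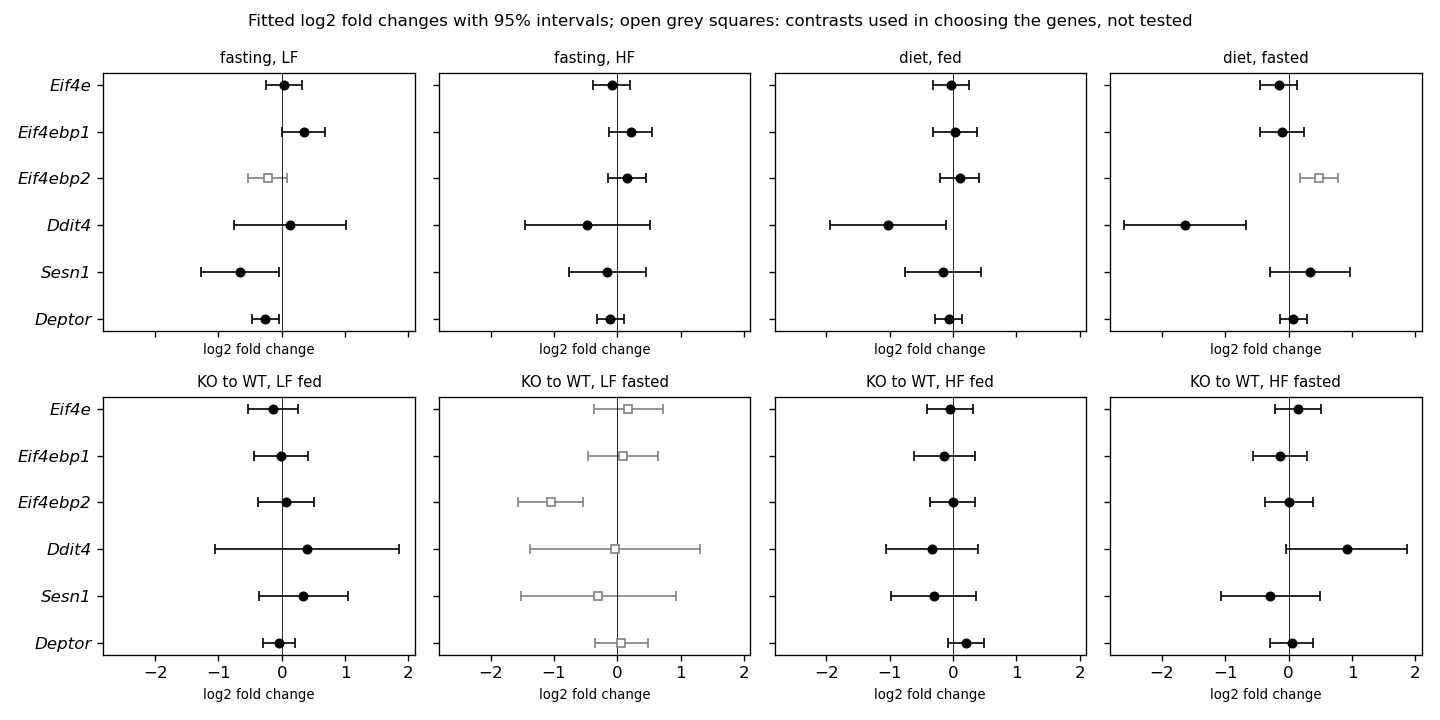
Fitted log2 fold changes (x axis) of the 6 members that passed the filter (y axis), with 95% intervals, in 8 contrasts; fasting is fasted to fed, diet is HF to LF, and open grey squares mark contrasts that served to choose the genes. Ddit4 in fasted mice between diets (-1.63) and Eif4ebp2 in LF fasted mice between genotypes (-1.06) lie farthest from 0 on the low side.

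The genes whose levels ran most closely with a member over the 30 mice were also listed, as a description without a test. For Eif4ebp2 these were Rnf128 (Pearson r = 0.761), Capzb (0.760) and Tm9sf2 (0.759), out of 5264 genes with a mean of at least 20 CPM. For Ddit4 they were Atg16l2 (0.730), Irf2bp2 (0.688) and Lpin1 (0.678), the last encoding the phosphatidate phosphatase lipin 1. For the sparse counts of Sesn2 the highest values were 0.569 (Mrps7), 0.559 (Serpine2) and 0.555 (F2) and no relation is read from them. The mice share batches, diet and feeding state, so these values do not separate single genes from group effects.

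Around the 8 genes, the pathway itself was described with 10 lists of 125 genes that act upstream or downstream. On fasting over all strata, 22 of the 112 genes tested rose and 11 fell, against 9.77% of all genes higher and 9.14% lower. On LF 16 rose and 11 fell (10% and 9.41% of all genes), and on HF 4 rose and 1 fell (1.43% and 1.19%), or 4 and 2 without the 4 mice with RNA of other tissues. Among the 8 subunits of mTORC1 and mTORC2, 1 rose and 0 fell: Mtor, the kinase, by 0.73 (SE 0.13, adjusted p = 2.55e-05). Of 5 genes of the TSC complex and Rheb, Tsc1, which restrains Rheb, fell by 0.41 and 0 rose. Of 24 Rag GTPase and regulator genes 4 fell and 0 rose, led by Fnip2 (-0.78), Lamtor1 (-0.43) and the third sestrin gene Sesn3 (-0.79). Median changes of these 3 lists were 0.04, 0.11 and -0.07, close to the -0.0022 of all genes.

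Downstream of mTORC1, genes moved both ways on fasting. In the S6 kinase arm 2 of 6 rose and 2 fell (median 0.18). Pdcd4, a translation inhibitor that acts on eIF4A, fell by 0.70 (SE 0.083, adjusted p = 2.72e-08), Eef2k, the kinase that slows elongation, fell by 0.97, and Eif4b, a helper of eIF4A, rose by 0.38. Of 12 genes of eIF4F and its partners 2 rose and 0 fell (median 0.15): Mknk2, a kinase of eIF4E, rose by 0.54 and Eif4h by 0.25. Without KO LF fasted replicate 1, 4 of the 12 rose. Without the 2 mice with adrenal RNA, 1 gene of the S6 kinase arm rose. Upstream, in the insulin and AMPK list, Irs2 and Insr rose by 0.88 and 0.29 and Pik3r1 fell by 0.35, 3 of 16 genes in all (median -0.05); without the mice with adrenal RNA, 2 fell.

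The transcription factors that can induce Ddit4 or the sestrins were followed through their targets. In the list of ATF4 targets 5 of 14 genes rose and 2 fell on fasting (median 0.05), with Atf5 higher by 0.57 and Sqstm1 by 0.32. The 2 that fell were Atf4 itself, which the list holds, by 0.51, and Chac1 by 1.27. Without the 2 mice with adrenal RNA, 3 of the 14 rose. Among glucocorticoid targets 5 of 10 rose and 0 fell (median 0.50): Mt1 and Mt2, the metallothioneins, by 4.62 and 4.53, and the clock gene Per1 by 2.22. Among p53 targets 3 of 10 rose and 2 fell (median 0.07), with Cdkn1a up by 2.22, Trp53inp1 up by 0.79 and Bbc3 down (-0.94). With the 2 mice with adrenal RNA left out, 1 glucocorticoid target and 3 p53 targets fell. Among FoxO targets 3 of 10 rose and 1 fell (median 0.30): Igfbp1 by 1.74, the gluconeogenic Pck1 by 1.56 and Irs2 by 0.88, while Sesn3, which 3 of the lists hold, fell.

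In fasted mice between diets, the contrast in which Ddit4 was called, 2 of the 112 list genes were higher and 7 lower on HF, against 3.75% and 2.9% of all genes. Of the 10 glucocorticoid targets 3 were lower, Zbtb16 (-2.15), Fkbp5 (-1.58) and Per1 (-1.45), and the median of the list was -1.09. Of the 10 FoxO targets 2 were lower, Igfbp1 (-2.36) and Ppargc1a (-0.84). Of the 10 p53 targets 1 was called lower and 0 higher, and the median of that list was 0.06. The 1 gene was Cdkn1a, which encodes a cell cycle inhibitor (-2.44, adjusted p = 8.29e-05). The 2 higher genes were Fnip2 (0.76), a regulator of the Rag GTPases, and Pdcd4 (0.44). Without the 2 KO LF fasted mice that held adrenal RNA, 1 glucocorticoid target was called lower. Over all lists, the numbers higher and lower were 2 and 4 without the 4 mice with RNA of other tissues, and 1 and 10 without KO LF fasted replicate 1. Atf5 (-0.99) was the 1 ATF4 target called. The genes of this contrast are named after their values in it had been seen. These lists and Ddit4 share the same mice, and their relation was not tested.

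**Figure D4:**
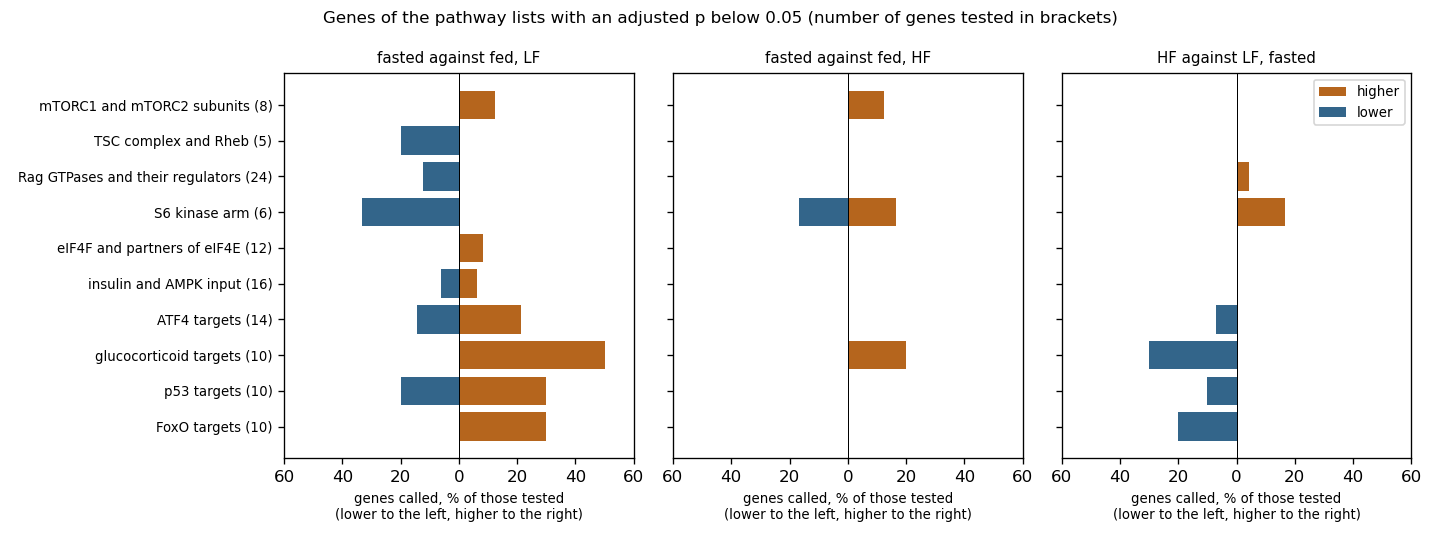
Share of tested genes called higher (right) or lower (left), in percent, for each of the 10 pathway lists (y axis, genes tested in brackets) in 3 contrasts; called means an edgeR adjusted p below 0.05. Glucocorticoid targets have 5 of 10 higher on fasting on LF, 2 of 10 higher on HF, and 3 of 10 lower on HF than on LF in fasted mice.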

How the data were processed

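RNA was measured in liver with 3′ libraries (QuantSeq) and single reads. According to the supplementary methods, the authors mapped reads to GRCm38 with HISAT 0.1.5, sorted them with SAMtools 1.2 and counted them per gene with HTSeq 0.6.1p1, without normalization; the deposited table holds these counts as whole numbers. The strand setting of the counting is not given in the sources used here. Symbols and positions came from GENCODE vM21, which held 19913 of 20076 identifiers; the others carried 0.125% of counts. Because reads start at the 3′ end, levels were not compared between genes. Groups, replicates and lanes came from the labels; these place 16 libraries on each lane, where the supplementary methods describe pools of 8, so values by lane rest on the labels alone. Total counts of 2031053 to 4292200 per mouse limit precision, and a count of 0 was read as up to 3 counts.

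The 8 genes and all lists were chosen with earlier results of these data known. Contrasts of fasting and diet came from a model of 8 groups over 30 mice, with edgeR 4.0.16 in R 4.3.3 (TMM, filterByExpr, robust quasi-likelihood F test, Benjamini-Hochberg adjustment over all genes tested, threshold 0.05). KO and WT were compared within 1 condition by the same test on those mice. CPM are TMM-normalized; for the 2 mice left out they are per total counts. Eif4ebp3, Sesn2 and Ddit4 were also compared by exact permutation over mice. Each library came from 1 mouse. Mice of a group differed by far more than sampling noise (smallest chi-square per gene 4.17 over 48 pairs), so none were merged. Alternatives were DESeq2 1.42.0, limma 3.58.1 voom, other scalings and filters, all 32 mice, each mouse left out, a replicate block, lane and age; leaving out mice with RNA of other tissues and the permutation tests were chosen after seeing the data. All 8 genes are named, and of each list the up to 3 genes with the smallest p among those called on fasting over all strata. Chac1 is named beside these.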

Additional observations from a re-analysis of the deposited data

Results flagged for a closer look

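Single mice stood far from the other 3 of their group for 3 members. Ddit4 was 45.86 CPM in KO LF fed replicate 4, where the others had at most 16.39 CPM, and 9.756 CPM in WT HF fasted replicate 2, the mouse with the most acinar pancreas RNA, where the others had at most 4.225 CPM. Sesn2 was 3.649 CPM in WT HF fed replicate 2, and Eif4ebp3 was 1.198 CPM (4 counts) in KO HF fed replicate 3, the 1 mouse of its group with any count. Of 47 groups examined 4 were marked in this way. For normally distributed values chance marks about 1 in 20, but this rate does not hold for sparse counts. A group with counts in 1 mouse only, as for Eif4ebp3 here, is always marked.

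The 2 mice that were left out lay above all 30 others for several members. The heart-like library labelled KO HF fasted replicate 4 had 92.79 CPM of Eif4e, 56.39 of Eif4ebp1, 67.43 of Ddit4 and 78.77 of Sesn1. WT LF fed replicate 2, in which stellate cell markers summed to 1558 CPM and bile duct markers to 428.1 CPM, had 61.33 CPM of Eif4ebp1 and 73.18 of Ddit4. For comparison, the highest of the 30 mice had 66.41 CPM of Eif4e, 52.79 of Eif4ebp1, 51.85 of Ddit4 and 15.97 of Sesn1.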

How the results depend on the processing

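Of 2132 combinations of a member, a contrast and another setting, 2105 kept their direction or stayed uncalled, 16 lost a call (all Ddit4 between diets in fasted mice), 11 gained a call (Deptor and Eif4ebp1 on fasting) and 0 reversed a called change; in 178 the sign of an uncalled change turned. The Eif4ebp2 difference in LF fasted mice ran from -1.36 to -0.89 over all settings. The number of members called on fasting over all strata rose from 0 to 1 without a filter on low counts, without the mice with adrenal RNA and without the 4 mice with RNA of other tissues (Eif4ebp3), and with a minimum of 10 counts, DESeq2, voom and a lane term (Deptor). On LF it rose from 0 to 1 without a filter, without the adrenal mice and without the 4 mice (Eif4ebp3), and with a minimum of 10 counts, DESeq2 and a lane term (Deptor). Between diets in fasted mice it fell from 1 to 0 without a filter, with voom, with all 32 mice, with KO HF fasted replicate 4 added back, within lane 7, within lane 8, without the adrenal mice and without the 4 mice. With single mice left out, these 3 numbers ranged from 0 to 2, 0 to 1 and 0 to 1; the gains were Eif4ebp3 where a smaller group let it pass the filter, and Deptor and Eif4ebp1 without KO LF fasted replicate 1. Leaving out the mice with adrenal RNA, alone or among the 4, likewise made the KO LF fasted group smaller, and only so did Eif4ebp3 pass the filter. The cause was not tested for the remaining changes.

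The replicate numbers are shared by groups but do not pair mice: residuals of 98 same-numbered pairs had a median correlation of 0.00598 and a lowest of -0.204. With the replicate block, the number of members called was 1 for fasting over all strata and 0 between diets in fasted mice, the Eif4ebp2 difference was -1.08, and no other member call changed. Depth limits the members with few counts, Eif4ebp3, Sesn2 and Sesn1, most.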
